A study of Mus musculus with 24 samples.

Results

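The 10 genes described here code for the enzymes that remove superoxide and peroxides in the cell and for the protein that feeds electrons to several of them. They are the superoxide dismutases Sod1 and Sod2, catalase (Cat), the glutathione peroxidases Gpx1 and Gpx4, the peroxiredoxins Prdx1, Prdx2, Prdx5 and Prdx6, and thioredoxin (Txn1). They were chosen by symbol, and all 10 of 10 were found in both expression tables, which list 56691 genes each. All 10 passed the filter on low values, with between 209 and 29666 counts in a single library.

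RNA-seq had been run on 24 libraries from 2 kinds of mouse macrophage, 3 libraries in each of 8 groups. RAW264.7 is an established macrophage-like line from a mouse leukaemia. Its Olfml3 knockout was made with a lentiviral CRISPR-Cas9 vector and grown as clones from single cells. How many clones were sequenced is not stated. Bone marrow-derived macrophages (BMDMs) came from 8-week-old male C57BL/6 mice, wild type or with Olfml3 deleted in all cells (Olfml3-/-), and were matured for 6 days in medium with L929 cell supernatant. Each genotype of each kind of cell received PBS or lipopolysaccharide (LPS, a bacterial cell wall component that activates macrophages) at 100 ng/mL for 4 h. Groups follow the sample titles, since a genotype field contradicts the title in 12 of 24 samples. The study calls the libraries of a group biological replicates, but no label says whether they came from separate cultures or animals, so p-values cover the spread between libraries, which may be technical.

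Olfml3 itself went against the label in RAW264.7. Its mean was 0.163 FPKM (fragments per kilobase of exon, scaled to the depth of the library) in wild-type RAW264.7 cells with PBS and 0.95 in those labelled knockout. With LPS these means were 0.183 and 18.7. What lies behind this was not tested, and "labelled knockout" is used for RAW264.7 throughout. In BMDMs the knockout was the lower, as labelled, at 0.597 and 0.0167 FPKM with PBS and 0.247 and 0.00333 with LPS. Each RAW264.7 library held between 11638273 and 16478616 counts, and each BMDM library between 17121240 and 22873094. One library stood apart from its group: replicate 1 of labelled knockout RAW264.7 cells with PBS gave chi-square values per degree of freedom of 88.9 with replicate 2 and 90.0 with replicate 3, which between them gave 2.33. The members together took 0.310% of its counts, against 0.190% and 0.196% in replicates 2 and 3 and 0.331% to 0.347% in the wild-type RAW264.7 libraries. Macrophage markers were present in both kinds of cell, except that Mertk was listed at 0 in every RAW264.7 library. Neutrophil markers summed to at most 0.81 FPKM in RAW264.7 and to between 5.33 and 8.61 in BMDMs, with Ly6g listed at 0, and B cell and fibroblast lists to at most 1.73 and 1.44. The markers of erythroid cells, which are rich in Cat and Prdx2, summed to at most 0.71 FPKM in any library, with the haemoglobin gene Hba-a2 listed at 0 in all of them. In bulk libraries, fewer cells of a type and less RNA per cell cannot be told apart.

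Superoxide dismutases turn superoxide into hydrogen peroxide. Sod1 does so with copper and zinc in the cytosol, and Sod2 with manganese in mitochondria. Hydrogen peroxide is then removed by catalase in peroxisomes, by glutathione peroxidases, which draw on glutathione, and by peroxiredoxins, most of which draw on thioredoxin. Activated macrophages make superoxide and nitric oxide to kill microbes, and Sod2 is a well-known target of the NF-kB transcription factor in inflammation.

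Gpx1 and Gpx4 are selenoproteins: a UGA codon inside their coding sequence, which would elsewhere be a stop, is read as selenocysteine in the catalytic site. A search of the coding sequence of each member's principal GENCODE transcript found an in-frame TGA in these genes and in none of the other members, and both are annotated as selenocysteine. In the 27 bases around it, 5′ to 3′, the capitals mark that codon, at chr9:108339451-108339453 (plus strand, codon 47) in Gpx1 and at chr10:80054737-80054739 (plus strand, codon 73) in Gpx4, both in coding exon sequence of GRCm38.
Gpx1: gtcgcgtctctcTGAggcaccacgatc
Gpx4: gtggcctcgcaaTGAggcaaaactgac
Both genes therefore depend on the machinery for selenocysteine, whose genes are given with the LPS results.

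Promoters, taken as the 250 bases before each start in RefSeq (GRCm38), were available for 9 of 10 members and are shown because the LPS results below divide the members into genes that rose and genes that fell. An NF-kB consensus (10 letters, both strands) was found in 4 of the 9, Sod2, Cat, Gpx1 and Prdx1, and in 7.25% of all 32851 promoters. In these 30-base stretches the capitals mark the match. They lie at chr17:13007746-13007775 (plus strand) for Sod2, chr2:103485250-103485279 (minus strand) for Cat and chr9:108339015-108339044 (plus strand) for Gpx1.
Sod2: cggggcggacGGGGTTCCCCgaggcggggc
Cat: gtccacctccGGGAGCCCCCacttctcgcc
Gpx1: agacagagctGGAAGATCCCcgcctaagca
The match therefore stood in promoters of a gene that rose and of genes that fell with LPS. The core of the antioxidant response element, TGACNNNGC, which the stress factor Nrf2 binds, was found in Prdx1 and Sod1 and in 10.2% of all promoters. In Prdx1, at chr4:116685456-116685485 (plus strand), it overlapped a site of the AP-1 form TGANTCA, itself found in 6.75% of all promoters. The Sod1 match lies at chr16:90220696-90220725 (plus strand), and capitals again mark the matches, both elements of this kind being read on the opposite strand.
Prdx1: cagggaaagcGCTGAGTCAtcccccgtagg
Sod1: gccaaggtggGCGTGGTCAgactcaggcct
The GC box GGGCGG was present in 7 of the 9 members' promoters and in 32.7% of all promoters. These are matches of letters, with no measurement of binding.

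The levels of the members differed widely within a library, and their order differed between the 2 kinds of cell. In wild-type RAW264.7 cells with PBS the highest was Txn1, the small protein that reduces peroxiredoxins, at 681 ± 17.0 FPKM (SD, n = 3), followed by Prdx1 at 360 ± 6.69. Then came Sod1 at 93.3 ± 4.02 and Gpx1 at 92.1 ± 0.351, whose libraries overlapped, Prdx2 at 87.8 ± 0.577, Prdx6 at 74.5 ± 3.28 and Gpx4 at 53.2 ± 2.74. The lowest were Prdx5 at 44.9 ± 3.03 and Cat at 43.5 ± 0.480, which overlapped, and Sod2 at 14.3 ± 0.163. In wild-type BMDMs with PBS the order began with Prdx1 at 381 ± 1.28 FPKM, and Txn1 followed at 138 ± 3.74. Gpx1 (103 ± 2.89), Gpx4 (99.6 ± 1.40), Cat (90.3 ± 3.53) and Prdx5 (67.5 ± 3.19) stood in the middle. Prdx2 (32.0 ± 0.391), Sod1 (27.4 ± 0.372), Prdx6 (14.0 ± 0.392) and Sod2 (5.33 ± 0.206) ended the list. The tables were scaled separately, so a gene's level in one kind of cell is set beside its level in the other with no test.

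FPKM between genes rests on the exonic length the files give, which for several members is much longer than the principal transcript. For Sod1 it is 3970 bases against 641, a factor of 6.19, while for Cat and Txn1 both lengths are the same. Per principal transcript, Sod1 took rank 2 of the members in wild-type RAW264.7 cells with PBS, at 578, and rank 3 in wild-type BMDMs with PBS, at 169, in place of rank 8. Sod2 stayed the lowest of the members in both groups, at 24.5 and 9.11. This choice, made after seeing the data, moves levels between genes and leaves every fold change as it is.

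**Figure D1:**
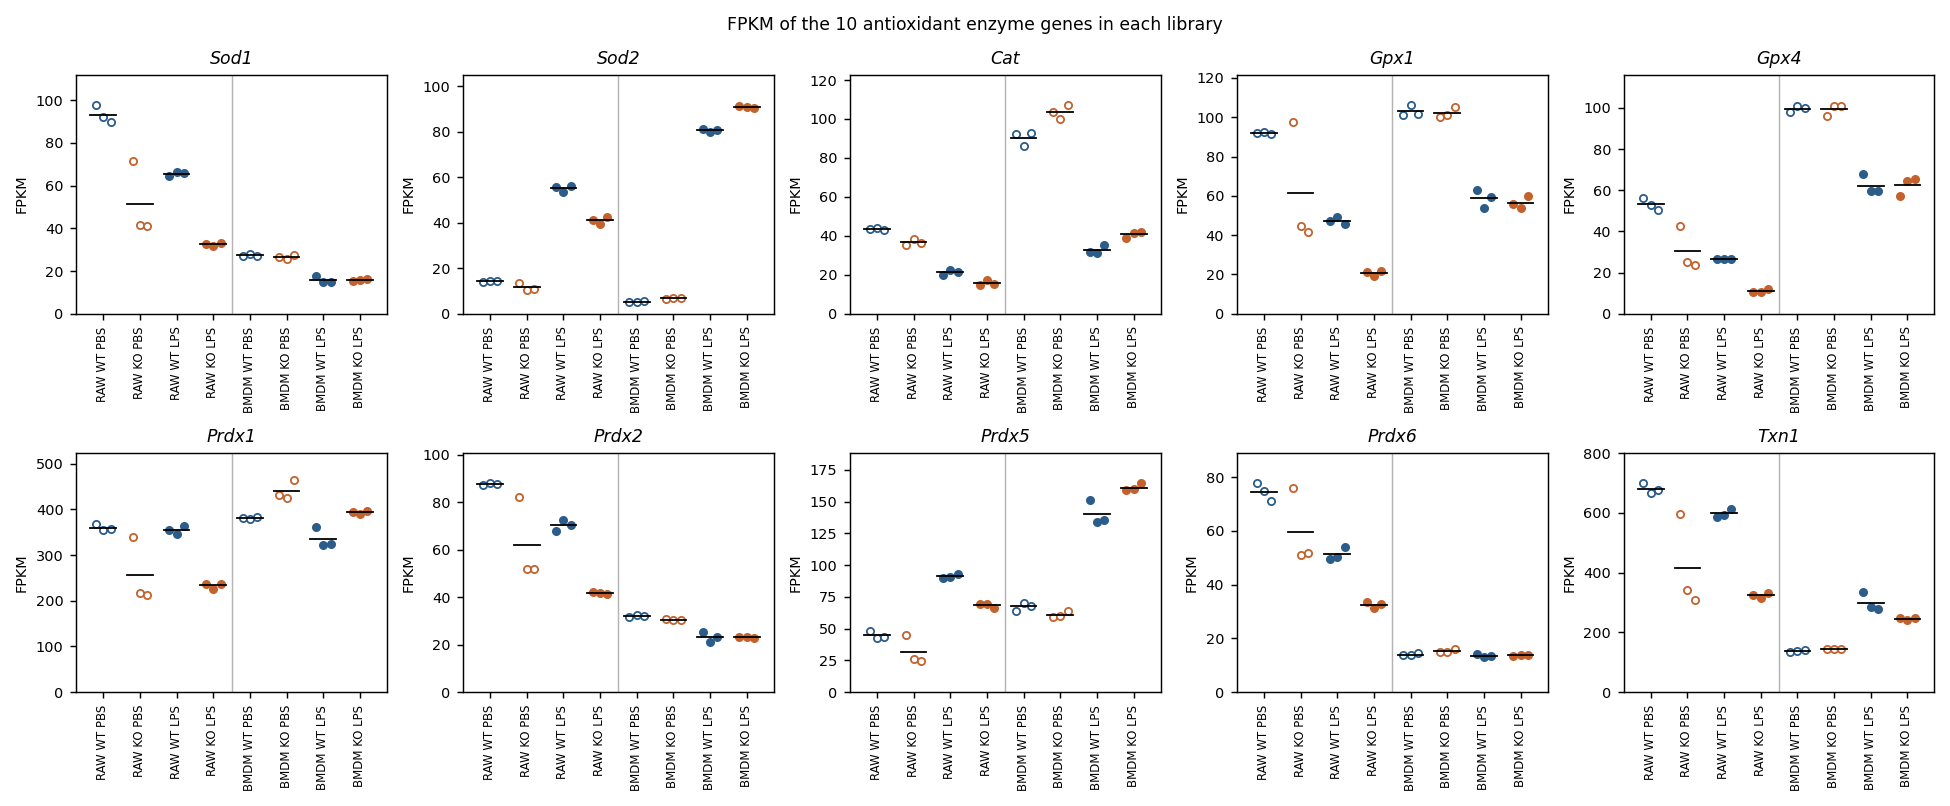
FPKM (vertical axis, from 0) of each of the 10 genes in the 24 libraries, by group (horizontal axis; blue wild type, orange labelled knockout, open PBS, filled LPS; the line is the group mean of 3 libraries). Sod2 and Prdx5 stand higher with LPS in both kinds of cell, and replicate 1 of the labelled knockout RAW264.7 group with PBS is the highest of its 3 libraries for 9 of the 10 genes, Cat excepted.

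Near-identical copies mattered for one member. Reads assigned to the pseudogene Gpx4-ps2 came to 82.8% of the Gpx4 count over the 12 RAW264.7 libraries, between 75.9% and 95.1% in each, and to 14.4% over the 12 BMDM libraries, between 13.3% and 17.1% in each. Counted with them, Gpx4 was at 96.7 ± 5.61 FPKM in wild-type RAW264.7 cells and at 113 ± 1.46 in wild-type BMDMs with PBS, against 53.2 and 99.6 without them. All calls of Gpx4 given below were the same with these reads, an alternative added after seeing the data. Copies of Prdx1, Prdx2, Prdx6 and Txn1 held at most 0.294% of the parent's count. Prdx2 overlaps exons of Junb and Rnaseh2a, and Prdx5 those of Trmt112, on the opposite strand, and reads there cannot be told apart unless strand was used in counting, which is not stated.

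**Figure D2:**
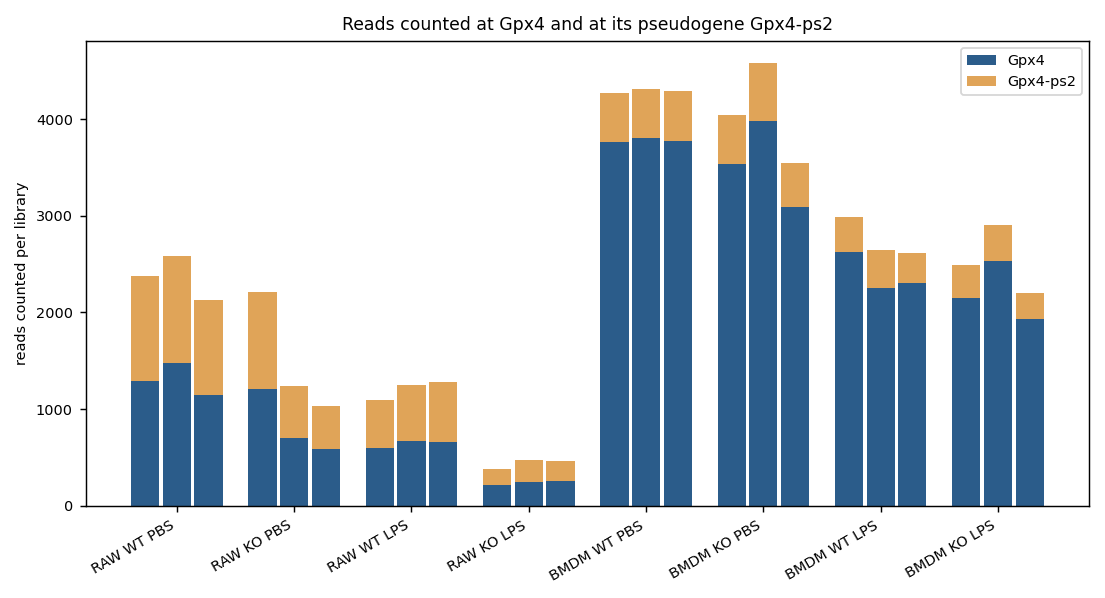
Reads counted at Gpx4 (blue) and, stacked on it, at the pseudogene Gpx4-ps2 (yellow) in each of 24 libraries, 3 bars a group (vertical axis: reads per library, from 0). The pseudogene part is nearly as large as the Gpx4 part in every RAW264.7 library and a small part in every BMDM library.

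The first question was how the enzymes respond to LPS. A gene was called when limma gave a Benjamini-Hochberg adjusted p under 0.05 over all genes tested and a fold change of at least 1.5 on log2(FPKM + 0.1). In wild-type RAW264.7 cells 2 members rose, Sod2 and Prdx5, and 3 fell, Cat, Gpx1 and Gpx4. Over all 26740 genes tested, 5.8% were called higher and 12.5% lower, and of expressed genes (mean of at least 1 FPKM) 9.19% and 23.4%. In wild-type BMDMs Sod2, Prdx5 and Txn1 rose and Sod1, Cat, Gpx1 and Gpx4 fell, against a background of 7.94% called higher and 32.5% lower of 26973 genes. Of expressed genes there 12.7% were called higher and 55.5% lower. The same members rose in RAW264.7 cells labelled knockout and in knockout BMDMs: 2 in RAW264.7, where 7.45% of all genes were called higher and 14.6% lower, and 3 in BMDMs, where 8.02% were called higher and 30.9% lower. Those that fell there were 5 in RAW264.7 (Sod1, Cat, Gpx1, Gpx4 and Prdx6) and, in BMDMs, the same 4 as in the wild type. Of expressed genes, 10.9% were called higher and 27% lower in labelled knockout RAW264.7 cells, and 13.1% and 51.1% in knockout BMDMs.

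A caution on scale belongs beside every fall in BMDMs. The median change of all expressed genes (mean of at least 1 FPKM) with LPS was -0.73 on the log2 scale in wild-type BMDMs and -0.62 in knockout BMDMs, against -0.21 and -0.23 in RAW264.7. With libraries scaled by median ratios, 4 members were called in either genotype of BMDM, Sod2, Prdx5 and Txn1 higher and Cat lower, so that the calls of Sod1, Gpx1 and Gpx4, whose changes lay within 0.23 of the median gene in both genotypes, depend on the scaling. Of 26973 genes, 3381 were then called higher and 5269 lower in the wild type, and 3141 and 5156 in the knockout. The share of calls over all genes that were higher moved likewise, from 19.6% to 39.1% in wild-type BMDMs and from 31.7% to 48.0% in wild-type RAW264.7 cells. The list of T and NK cell markers summed to at most 0.12 FPKM in BMDMs with PBS and to between 10.96 and 12.72 in the wild type and 3.62 and 3.89 in the knockout with LPS, nearly all of it Lck, with Cd3d, Cd3e and Cd3g listed at 0 in all 12 libraries. Its part in the results was not tested.

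Sod2, the mitochondrial manganese enzyme (chromosome 17, 13006846 to 13040063, plus strand of GRCm38), changed most. In wild-type BMDMs its 3 PBS libraries were at 5.41, 5.10 and 5.49 FPKM and its 3 LPS libraries at 81.3, 79.9 and 80.9. This was a 14.9-fold rise (log2 3.89 ± 0.044 SE, limma adjusted p = 9.19e-12). The change was higher than that of 98.2% of expressed genes. Knockout BMDMs went from 6.69, 7.04 and 6.84 to 91.2, 90.7 and 90.5, a 13.1-fold rise (log2 3.71 ± 0.044). In wild-type RAW264.7 cells the libraries were at 14.1, 14.4 and 14.4 with PBS and at 55.7, 53.6 and 56.0 with LPS, a 3.83-fold rise (log2 1.94 ± 0.096, adjusted p = 3.56e-07). Those labelled knockout went from 13.6, 10.6 and 10.97 to 41.1, 39.5 and 42.5 (log2 1.81 ± 0.096). In all 4 settings the LPS libraries lay above all PBS libraries. By level, Sod2 moved from rank 10 of the members to rank 4 in BMDMs of either genotype.

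Sod1, the cytosolic copper-zinc enzyme (chromosome 16, 90220754 to 90226329, plus strand), went the other way or little. Wild-type BMDMs had 27.1, 27.8 and 27.1 FPKM with PBS and 17.6, 14.8 and 15.1 with LPS (log2 -0.79 ± 0.068, adjusted p = 3.36e-06). The groups did not overlap, but the change was -0.06 from the median gene, and under median-ratio scaling it was -0.17 and not called. It went in wild-type RAW264.7 cells from 97.7, 92.3 and 89.9 to 64.5, 66.3 and 65.9, which missed the threshold (log2 -0.51 ± 0.18, adjusted p = 0.0752). In those labelled knockout the call of Sod1 (log2 -0.61, adjusted p = 0.0301) turned on replicate 1 with PBS, without which the change was -0.35. The call was also lost without any one of the 3 LPS libraries, at adjusted p of 0.0739, 0.0787 and 0.0679, and with median-ratio scaling, at 0.157. On counts the change of Sod1 was -0.43 with edgeR and -0.40 with DESeq2, neither called, and a fit of those groups alone gave an adjusted p of 0.152. Its copper chaperone Ccs fell with LPS in both kinds of cell, by 0.77 on the log2 scale in the wild type of each.

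Cat, which breaks down hydrogen peroxide in peroxisomes (chromosome 2, 103453849 to 103485160, minus strand), was the member whose fall held in every kind of cell and under every scaling run. It went in wild-type RAW264.7 cells from 43.5, 43.9 and 43.0 FPKM to 19.9, 22.6 and 21.6 (log2 -1.02 ± 0.085, adjusted p = 1.29e-05). In wild-type BMDMs the PBS libraries were at 92.1, 86.3 and 92.6 and the LPS libraries at 31.6, 31.4 and 35.6 (log2 -1.46 ± 0.063, adjusted p = 2.00e-08). Under median-ratio scaling these 2 changes of Cat were -0.80 and -0.84. Cells labelled knockout gave -1.21 ± 0.085 in RAW264.7 and -1.34 ± 0.063 in BMDMs. No library with LPS reached any library with PBS.

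Gpx1, the cytosolic glutathione peroxidase (chromosome 9, 108338903 to 108340343, plus strand), was at 92.2, 92.4 and 91.7 FPKM in wild-type RAW264.7 cells with PBS. With LPS it was at 47.2, 49.4 and 45.6 (log2 -0.96 ± 0.26, adjusted p = 0.0247). The libraries of each group lie close together, and a fit of these groups alone gave an adjusted p of 0.000215 for Gpx1. The call of Gpx1 was lost when any one of the 6 libraries compared was left out, with adjusted p between 0.0575 and 0.0729, and under median-ratio scaling, at 0.0683. It held at 5.19e-06 without replicate 1 of the labelled knockout group with PBS. In RAW264.7 cells labelled knockout Gpx1 went from 97.4, 44.6 and 41.8 to 21.1, 19.3 and 21.9 (log2 -1.45 ± 0.26, adjusted p = 0.00215). It went from 101, 106 and 102 to 62.9, 54.0 and 59.6 in wild-type BMDMs, a change of -0.81 ± 0.066 that was -0.20 and not called under median-ratio scaling.

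Gpx4, the glutathione peroxidase that reduces lipid peroxides in membranes and holds back ferroptosis (chromosome 10, 80047166 to 80056439, plus strand), followed the same course. Wild-type RAW264.7 cells gave 56.0, 52.9 and 50.6 FPKM with PBS and 26.8, 26.4 and 26.7 with LPS (log2 -0.99 ± 0.19, adjusted p = 0.00341). In those labelled knockout it went from 42.6, 25.3 and 23.6 to 10.4, 10.7 and 12.1 (log2 -1.40 ± 0.19, adjusted p = 0.000309). With median-ratio scaling both falls remained called, at -0.77 and -1.16. In wild-type BMDMs Gpx4 went from 98.1, 101 and 99.8 to 67.8, 59.6 and 59.6 (log2 -0.68 ± 0.069), which was 0.05 above the median gene. Counted with edgeR or DESeq2, its change there was 0.10 and 0.13, in the other direction.

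Prdx5, a peroxiredoxin found in mitochondria, peroxisomes and cytosol (chromosome 19, 6906697 to 6910106, minus strand), rose in all 4 settings. Its libraries in wild-type RAW264.7 cells went from 48.3, 42.5 and 43.8 FPKM to 89.7, 91.0 and 93.1 (2.04-fold, log2 1.03 ± 0.19, adjusted p = 0.0029). In wild-type BMDMs it went from 64.1, 70.4 and 68.1 to 151, 134 and 135 (2.07-fold, log2 1.05 ± 0.062, adjusted p = 1.98e-07). The rise was 2.22-fold in RAW264.7 cells labelled knockout, from 44.7, 26.3 and 24.4 to 69.0, 69.5 and 66.4, and 2.63-fold in knockout BMDMs, from 59.3, 60.0 and 64.0 to 159, 160 and 164. With LPS Prdx5 took rank 3 among the members in both kinds of cell and both genotypes.

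The other peroxiredoxins moved less. Prdx1, the most abundant (chromosome 4, 116685544 to 116700822, plus strand), was not called with LPS in any setting: its log2 changes were -0.02 ± 0.16 and -0.10 ± 0.16 in wild-type and labelled knockout RAW264.7 cells and -0.18 ± 0.056 and -0.16 ± 0.056 in BMDMs. Relative to the median gene Prdx1 was higher by 0.55 in wild-type BMDMs, and the count tests called it higher there, at 0.59 with edgeR and 0.62 with DESeq2. Prdx2 (chromosome 8, 84969587 to 84974834, plus strand), like Prdx1 a cytosolic enzyme that uses thioredoxin, changed by -0.32 to -0.53 and was not called. In BMDMs the direction of Prdx2 turned with the scaling, to 0.14 in the wild type and 0.11 in the knockout with median-ratio scaling, where it was not called either. Prdx6, a peroxiredoxin that uses glutathione and also has phospholipase activity (chromosome 1, 161240112 to 161251219, minus strand), was at 77.7, 74.7 and 71.2 FPKM in wild-type RAW264.7 cells with PBS and at 49.6, 50.3 and 54.0 with LPS (log2 -0.54 ± 0.14). Its adjusted p of 0.0191 passed and its fold of 1.45 did not. In RAW264.7 cells labelled knockout Prdx6 fell (log2 -0.84 ± 0.14, adjusted p = 0.00122), by 0.66 without replicate 1 of the PBS group. With median-ratio scaling as well, the change of Prdx6 was -0.43 and no longer called. In wild-type BMDMs Prdx6 changed by -0.04 ± 0.051, and edgeR and DESeq2 on counts called it higher by 0.74 and 0.77.

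Txn1 (chromosome 4, 57943373 to 57956411, minus strand) rose in BMDMs. In the wild type it went from 135, 138 and 142 FPKM to 335, 285 and 278 (2.16-fold, log2 1.11 ± 0.069, adjusted p = 2.88e-07). In the knockout it went from 143, 143 and 146 to 249, 240 and 250 (1.71-fold, log2 0.78 ± 0.069, adjusted p = 5.00e-06). Replicate 1 of wild-type BMDMs with LPS was the highest of its group for Txn1 and for 9 of the 10 members, Cat excepted, and its chi-square per degree of freedom was 11.4 with replicate 2 and 9.28 with replicate 3, while that pair gave 5.14. The rise of Txn1 was called without it. In wild-type RAW264.7 cells Txn1 was at 700, 667 and 675 with PBS and at 586, 594 and 615 with LPS, a change of -0.19 ± 0.20 that was not called (adjusted p = 0.623).

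**Figure D3:**
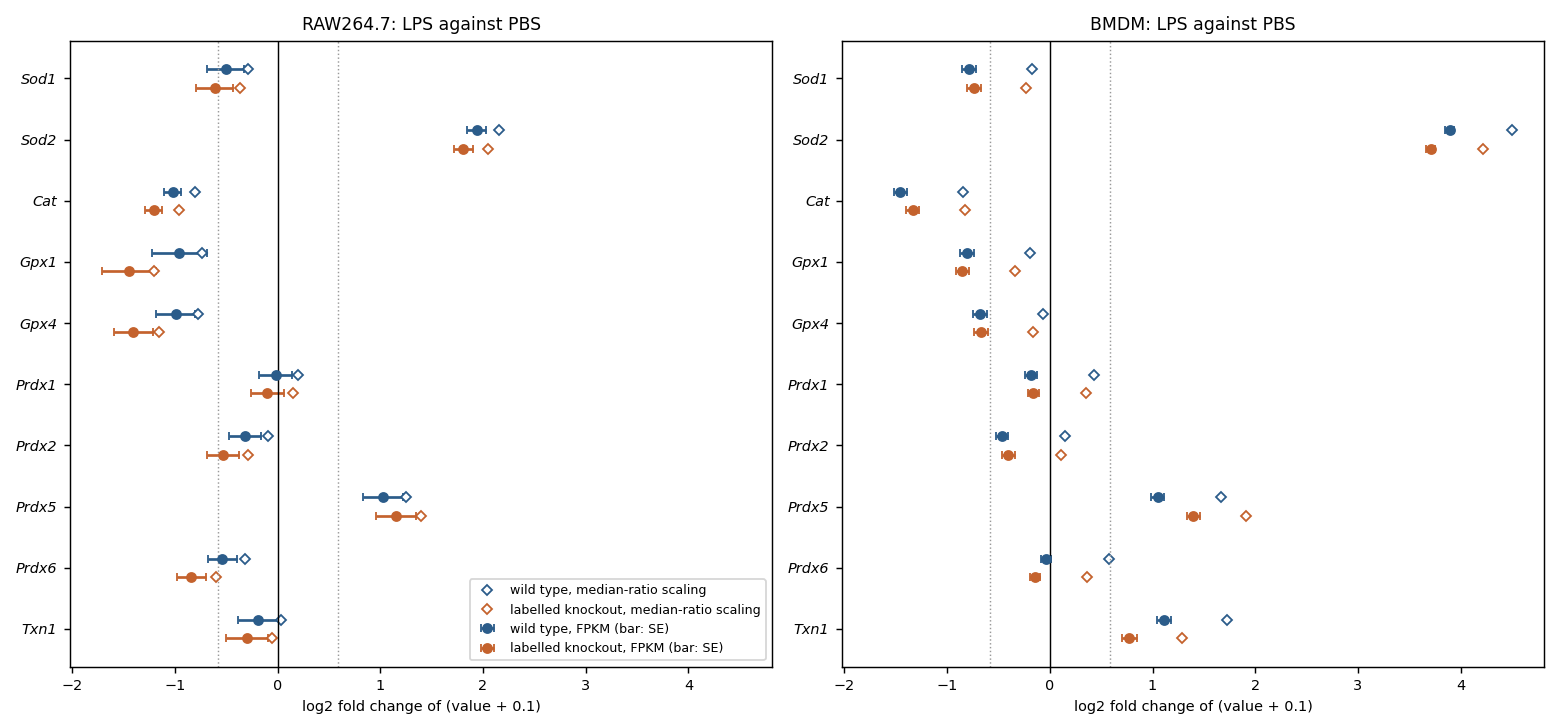
Log2 fold change of LPS against PBS (horizontal axis) of the 10 genes (vertical axis) in RAW264.7 (left) and BMDMs (right), blue for wild type and orange for labelled knockout. Filled circles are FPKM with limma's SE, open diamonds the same after median-ratio scaling, and dotted lines the 1.5-fold threshold. Sod2 and Prdx5 stand to the right of it and Cat to the left on both scales in both panels, while the BMDM values of Sod1, Gpx1 and Gpx4 move inside it.

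The rest of the 2 systems was followed through 37 further genes, of which 33 were tested in RAW264.7 and 34 in BMDMs. With LPS, 5 were called higher and 10 lower in wild-type RAW264.7 cells, and 2 higher and 20 lower in wild-type BMDMs. Of all genes tested, 5.8% were called higher and 12.5% lower in the first and 7.94% and 32.5% in the second, and of expressed genes 23.4% and 55.5% were called lower. With median-ratio scaling, an alternative added for these genes after seeing the data, the counts were 5 higher and 4 lower in wild-type RAW264.7 cells and 6 higher and 11 lower in wild-type BMDMs. The 2 that rose in both kinds of cell were Slc7a11 and Txnrd1. Slc7a11, the cystine importer that supplies glutathione synthesis, went from a mean of 1.56 to 12.8 FPKM in wild-type RAW264.7 cells (log2 2.96 ± 0.14) and from 0.463 to 4.57 in wild-type BMDMs (log2 3.05 ± 0.077). Txnrd1, the reductase that recharges Txn1, went from 48.0 to 82.2 FPKM in wild-type RAW264.7 cells (log2 0.77 ± 0.078) and from 29.8 to 51.7 in wild-type BMDMs (log2 0.79 ± 0.052).

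There were 9 genes that fell with LPS in the wild type of both kinds of cell: Ccs, Gclc, Gclm, Glrx5, Sesn1, Txnip, Sephs2, Pstk and Eefsec. Of these, 7 also fell with LPS in both RAW264.7 cells labelled knockout and knockout BMDMs, Gclm and Sephs2 excepted. How many of all genes rose or fell in both kinds of cell was not counted. Of expressed genes, 23.4% in RAW264.7 and 55.5% in BMDMs were called lower in the wild type. In the knockout these shares were 27% and 51.1%. With median-ratio scaling 4 of the 9 were called lower in the wild type of both, Gclc, Sesn1, Txnip and Pstk. Ccs, Gclm, Glrx5, Sephs2 and Eefsec then lost the call in RAW264.7, at log2 changes of -0.55, -0.38, -0.45, -0.40 and -0.43, and Ccs and Glrx5 also in BMDMs, at -0.16 and -0.30. Sesn1, a sestrin induced by p53 and FoxO, fell most, from 18.3 to 2.60 FPKM in RAW264.7 (log2 -2.77 ± 0.12) and from 82.5 to 0.633 in BMDMs (log2 -6.82 ± 0.11). Gclc, the catalytic subunit of the enzyme that begins glutathione synthesis, went from 29.8 to 13.6 and from 12.98 to 1.80 (log2 -1.13 and -2.78), and its modifier subunit Gclm changed by -0.60 and -1.20. Txnip, which binds and inhibits thioredoxin, went from 106 to 58.0 and from 176 to 39.1 (log2 -0.87 and -2.17). Sephs2, Pstk and Eefsec belong to the selenocysteine pathway on which Gpx1 and Gpx4 depend. Of its 7 listed genes 3 were called lower in wild-type RAW264.7 cells and 5 in wild-type BMDMs, and none was called higher, beside the 12.5% and 32.5% of all genes and 23.4% and 55.5% of expressed genes called lower. With median-ratio scaling 1 of the 7 was called lower in RAW264.7 and 3 in BMDMs. The median of the 7 was -0.03 in RAW264.7 and -0.93 in BMDMs, beside -0.21 and -0.73 for all expressed genes. Sephs2, which makes the selenium donor, fell from a mean of 147 to 95.4 FPKM in RAW264.7, while in BMDMs it fell from 22.1 to 4.04 (log2 -0.62 and -2.43). Sesn2, which shares the sestrin family, was called in opposite directions, 0.86 in wild-type RAW264.7 cells and -2.62 in wild-type BMDMs, a difference with no test of its own. Gpx3, the secreted glutathione peroxidase, was at 70.6 FPKM in wild-type BMDMs with PBS and at 0.0567 in wild-type RAW264.7 cells.

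The second question was what differs between the genotypes as labelled. Since Olfml3 went against the label in RAW264.7, the direction of every genotype change there rests on the sample titles. In RAW264.7 all 10 members were lower in the cells labelled knockout than in the wild type, with PBS and with LPS. The median change of all expressed genes there was 0.015 with PBS and -0.015 with LPS on the log2 scale. With PBS 3 were called lower, Sod1, Gpx4 and Txn1, where 3.77% of all genes were called lower and 4.79% higher. Of expressed genes 5.97% were called lower and 7.2% higher. With LPS 7 were called lower, Sod1, Gpx1, Gpx4, Prdx1, Prdx2, Prdx6 and Txn1, where 7.6% of all genes were called lower and 9.73% higher. Of expressed genes 13.5% were then called lower and 14.6% higher. With LPS the libraries of the 2 genotypes did not overlap for any of the 10 members. That count was not made over all genes, so it does not set the members apart from other genes. By adjusted p alone 9 members were lower with LPS, and 3064 of all 26740 genes.

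Among the dismutases, Sod1 with PBS was at 97.7, 92.3 and 89.9 FPKM in the wild type and at 71.6, 41.7 and 41.3 in the labelled knockout (log2 -0.90 ± 0.18, adjusted p = 0.0132). With LPS it was at 64.5, 66.3 and 65.9 against 32.5, 31.9 and 33.0, a 2.01-fold difference (log2 -1.01 ± 0.18, adjusted p = 0.0044). Sod2 was lower by 0.30 and 0.43 on the log2 scale with PBS and with LPS, under the fold threshold. Cat was lower by 0.25 and 0.43, also under it.

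With LPS the glutathione peroxidases differed most among the members. Gpx4 with LPS was at 26.8, 26.4 and 26.7 FPKM in the wild type and at 10.4, 10.7 and 12.1 in the labelled knockout, a 2.40-fold difference (log2 -1.26 ± 0.19, adjusted p = 0.00177). With PBS it was at 56.0, 52.9 and 50.6 against 42.6, 25.3 and 23.6 (log2 -0.85 ± 0.19, adjusted p = 0.0216). Gpx1 with LPS was at 47.2, 49.4 and 45.6 against 21.1, 19.3 and 21.9, a 2.28-fold difference (log2 -1.19 ± 0.26, adjusted p = 0.0113). With PBS the Gpx1 libraries overlapped, since replicate 1 of the labelled knockout was at 97.4, above the wild type, and replicates 2 and 3 were at 44.6 and 41.8 (log2 -0.70 ± 0.26, adjusted p = 0.109).

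Txn1 with LPS was at 586, 594 and 615 FPKM against 326, 314 and 333 (log2 -0.88 ± 0.20, adjusted p = 0.0127). With PBS it was at 700, 667 and 675 against 596, 343 and 309 (log2 -0.77 ± 0.20, adjusted p = 0.0381). Prdx1 with LPS was at 355, 346 and 363 against 238, 226 and 238 (1.52-fold, log2 -0.60 ± 0.16, adjusted p = 0.0218). That call sat at the edge of the fold threshold. It was lost with median-ratio scaling, at a log2 change of -0.58, and without any one of the 6 libraries compared, where the adjusted p was between 0.054 and 0.0658. Prdx2 (log2 -0.75 ± 0.16, adjusted p = 0.00848) and Prdx6 (log2 -0.65 ± 0.14, adjusted p = 0.00986) were also called with LPS, and Prdx5 (log2 -0.42 ± 0.19, adjusted p = 0.152) was not. When libraries were rescaled to an equal FPKM sum (TPM), 4 members stayed called with LPS, Sod1, Gpx1, Gpx4 and Txn1. On that scale 1222 of 26740 genes were called lower, against 2033 before.

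The PBS result turned on single libraries. Without replicate 1 of the labelled knockout group, 7 members were called lower, Sod1 (-1.17), Gpx1 (-1.09), Gpx4 (-1.12), Prdx1 (-0.75), Prdx2 (-0.76), Prdx5 (-0.82) and Txn1 (-1.06), where 8.11% of 26538 genes were called lower. Without replicate 2 or 3 of that group, or replicate 1 of the wild type, the count was 0, and without replicate 2 or 3 of the wild type it was 1. In the order named, these fits called 681 of 26104, 671 of 26418, 731 of 26580, 737 of 26234 and 729 of 26580 genes lower. A fit of the labelled knockout and wild-type PBS groups alone also gave 0, with adjusted p of 0.131 for Sod1, 0.153 for Gpx4 and 0.201 for Txn1. There 534 of 24620 genes were called lower. With LPS the count was 6 to 7 over the libraries left out.

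**Figure D4:**
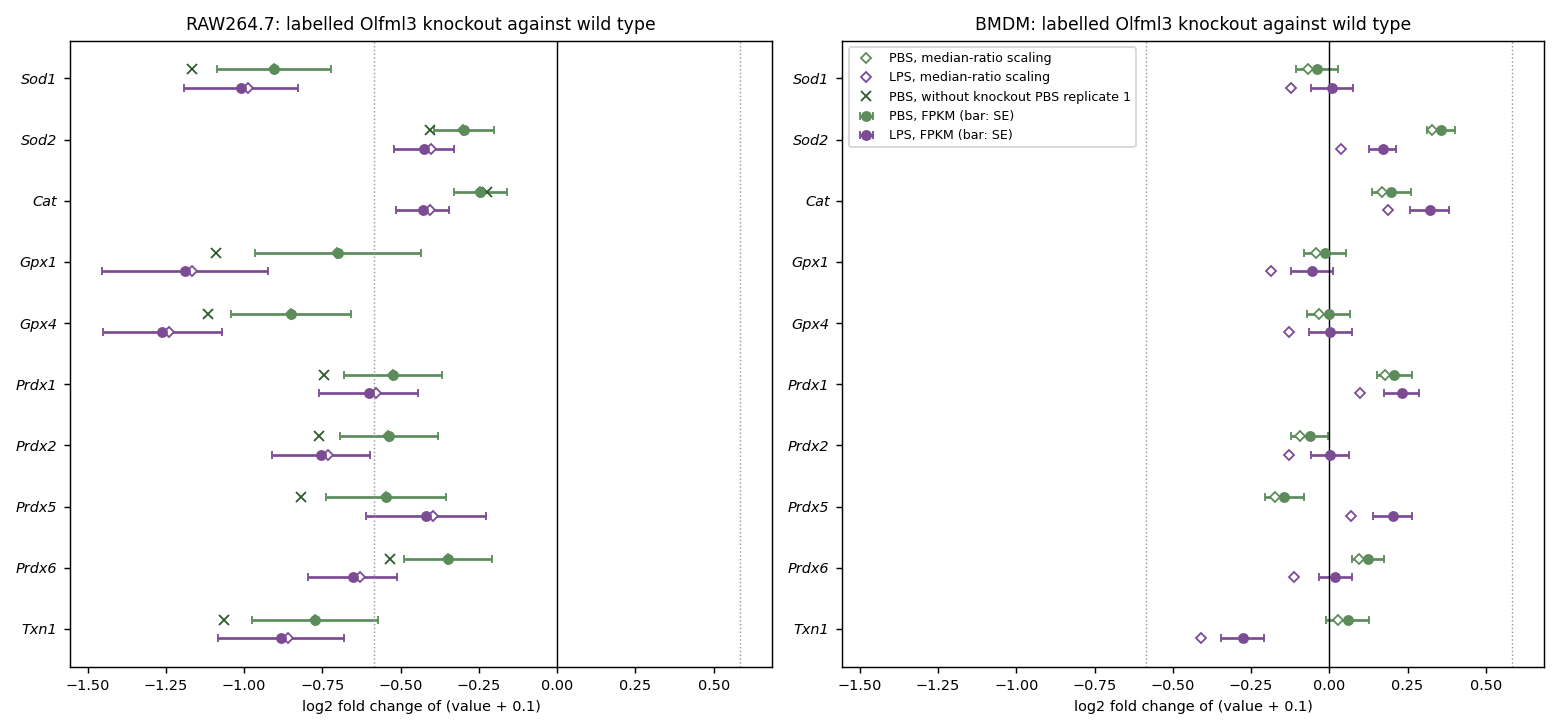
Log2 fold change of labelled Olfml3 knockout against wild type (horizontal axis) of the 10 genes (vertical axis), green with PBS and purple with LPS, in RAW264.7 (left) and BMDMs (right). Filled circles are FPKM with limma's SE, open diamonds the same after median-ratio scaling, crosses the PBS comparison without replicate 1 of the labelled knockout, and dotted lines the 1.5-fold threshold. In RAW264.7 every point lies below 0, and in BMDMs none reaches the threshold.

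The difference in RAW264.7 moved with transcript length over all expressed genes. With PBS the median log2 change of genes whose principal transcript has up to 1000 bases was -0.48 (629 genes, quartiles -0.62 and -0.24), against -0.33 for over 1000 to 1500 bases, -0.12 for over 1500 to 3000 and 0.26 for over 3000 (4641 genes). With LPS these medians were -0.59, -0.44, -0.17 and 0.28. In BMDMs they ran from 0.02 to 0.04 with PBS and from 0.06 to 0.17 with LPS. Of the 10 members 5 have principal transcripts of at most 1500 bases: Sod1 (641 bases) and Gpx4 (959) fall in the first class and Gpx1 (1072), Prdx5 (1262) and Txn1 (1051) in the second. Set against genes of their own length class, 9 of 10 members were below the lower quartile with PBS, Cat excepted, and 8 of 10 with LPS, Cat and Prdx5 excepted. Sod2, with a principal transcript of 5861 bases, was at -0.30 with PBS in a class whose lower quartile was 0.02. The part of transcript length in the differences of single members was not tested.

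**Figure D5:**
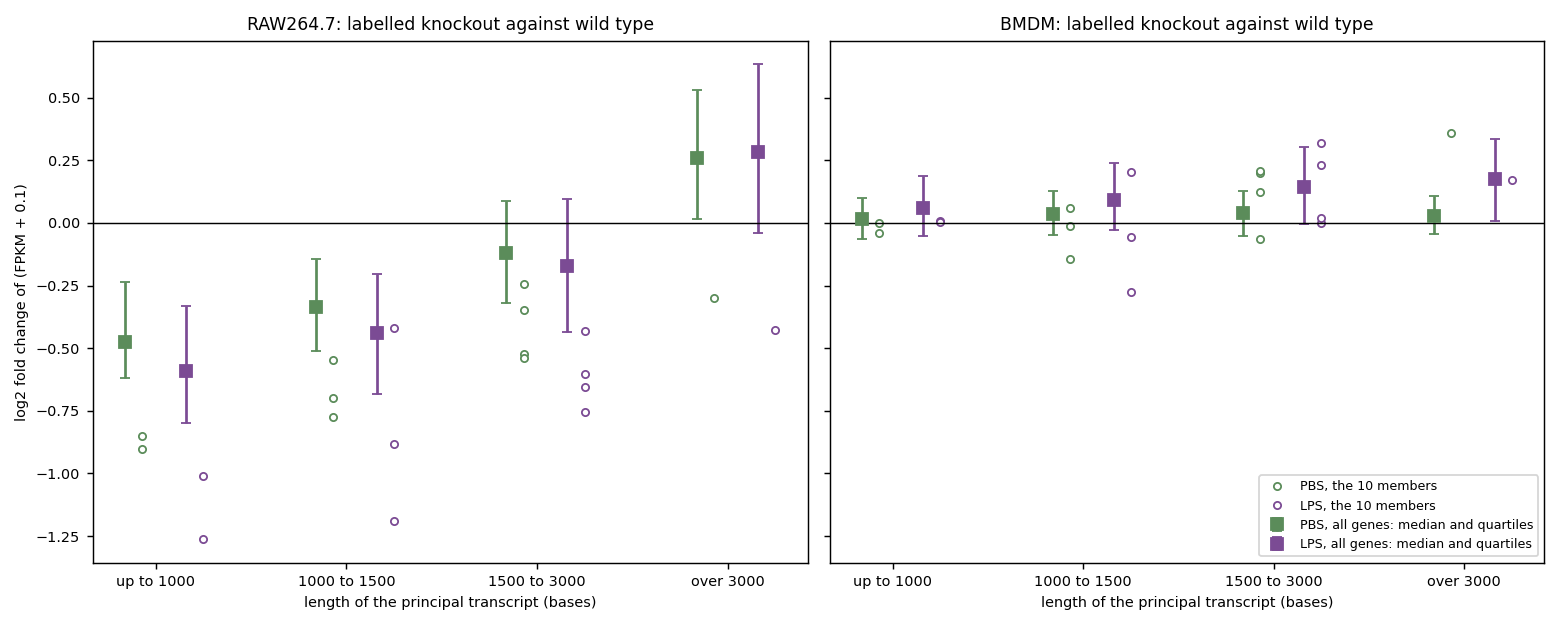
Log2 fold change of labelled knockout against wild type (vertical axis) by length of the principal transcript (horizontal axis, 4 classes) in RAW264.7 (left) and BMDMs (right), green with PBS and purple with LPS. Squares and bars are the median and quartiles of all expressed genes of the class, open circles the 10 members. In RAW264.7 the medians climb from -0.48 and -0.59 to 0.26 and 0.28 and most members lie below their class, and in BMDMs the medians stay between 0.02 and 0.17.

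Marker levels also differed between the RAW264.7 genotypes. The 8 macrophage markers summed to between 3344 and 4013 FPKM in the wild-type libraries and to between 1145 and 1420 in those labelled knockout, a difference carried by Lyz2, lysozyme, and Cd14, a co-receptor for LPS. Lyz2 went from a mean of 2052 FPKM in the wild type to 317 in the labelled knockout with PBS and from 2201 to 408 with LPS, and Cd14 from 445 to 107 and from 1135 to 399. Of the 7 markers tested 4 were called lower with PBS and 4 with LPS. Csf1r, the receptor of the growth factor M-CSF, and Fcgr1, an Fc receptor, were not called with PBS and were the higher in the labelled knockout, at 340 against 263 FPKM and 22.1 against 18.3. With LPS all 7 markers tested, Csf1r and Fcgr1 included, were lower by adjusted p alone, as were 3064 of all 26740 genes. The dendritic cell list went from sums of at most 1.36 to between 2.75 and 10.1, led by Siglech. Their part in the members' differences was not tested.

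Among the 37 further genes, 1 was called higher and 5 lower with PBS and 3 higher and 5 lower with LPS in labelled knockout RAW264.7 cells, beside 4.79% and 3.77% of all genes with PBS and 9.73% and 7.6% with LPS. These counts were the same with median-ratio scaling. Prdx4, the peroxiredoxin of the endoplasmic reticulum, was at a mean of 49.0 FPKM against 78.1 in the wild type with PBS (log2 -0.69 ± 0.14) and at 32.4 against 60.4 with LPS (log2 -0.89 ± 0.14). Srxn1, which repairs over-oxidised peroxiredoxins, was lower by 0.64 and 0.84 on that scale, and Glrx, a glutaredoxin, by 1.01 and 1.35. Slc7a11 was lower with PBS (log2 -1.04 ± 0.14) and higher with LPS (log2 1.08 ± 0.14), and the difference between those changes was called (interaction 2.12 ± 0.20, limma adjusted p = 0.00072).

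In BMDMs none of the 10 members was called for genotype, with PBS or with LPS, where limma called 1.82% and 4.76% of all genes. At an unadjusted p under 0.05, 5 members passed with PBS, where 14.7% of all genes did, and 5 with LPS, where 27.4% did, and edgeR and DESeq2 with the same thresholds also called none. Small differences passed the adjusted p without the fold. With PBS this was Sod2 alone, at 5.41, 5.10 and 5.49 FPKM in the wild type and 6.69, 7.04 and 6.84 in the knockout (1.28-fold, log2 0.36 ± 0.044, adjusted p = 0.00142), where 2.31% of all genes passed in that direction. With LPS they were Sod2 (0.17 ± 0.044), Cat (0.32 ± 0.063) and Prdx1 (0.23 ± 0.056) higher, where 13.6% of all genes passed, and Txn1 (-0.28 ± 0.069) lower, where 4.2% did. The median expressed gene was higher by 0.14 in the knockout with LPS. Under median-ratio scaling Sod2, Cat and Prdx1 came to 0.04, 0.19 and 0.10 with adjusted p of 0.682, 0.0986 and 0.296, and Txn1 to -0.41 with 0.00214.

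Values for Cat and Prdx1 show how small these differences are. Cat in BMDMs was at 92.1, 86.3 and 92.6 FPKM in the wild type and 104, 100 and 107 in the knockout with PBS, and at 31.6, 31.4 and 35.6 against 39.2, 41.6 and 42.2 with LPS. Prdx1 was at 381, 380 and 383 against 431, 426 and 464 with PBS and at 362, 323 and 324 against 395, 390 and 398 with LPS. In each the libraries of the 2 genotypes did not overlap. Sod1, Gpx1 and Gpx4, which differed most in RAW264.7 with LPS, differed by -0.05 to 0.01 in BMDMs, with libraries that overlapped. Median-ratio scaling took Sod1, Gpx1 and Gpx4 in BMDMs to -0.12, -0.19 and -0.13 with LPS and to -0.07, -0.04 and -0.03 with PBS. None of these was called. On FPKM, limma's SEs of the genotype difference of Sod1, Gpx1 and Gpx4 in BMDMs were 0.066 to 0.069 on the log2 scale. A 1.5-fold difference would exceed these SEs, but they cover the spread between libraries, which may be technical.

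Of the 37 further genes, none was called for genotype in BMDMs with PBS, and 4 were called higher with LPS, Sesn1, Gclc, Slc7a11 and Sephs2, the last not with median-ratio scaling (0.46). Of all 26973 genes tested, 1.82% were called in either direction with PBS and 872 were called higher with LPS. Among expressed genes 5.94% were called higher with LPS. Sesn1, Gclc and Slc7a11 were also called higher with LPS in labelled knockout RAW264.7 cells, where 9.73% of all genes were. How many of all genes were called higher in both kinds of cell was not counted. In BMDMs with LPS the means were 0.633 against 2.50 FPKM for Sesn1 (log2 1.83 ± 0.11), 1.80 against 3.15 for Gclc (log2 0.78 ± 0.072) and 4.57 against 7.85 for Slc7a11 (log2 0.77 ± 0.077). In RAW264.7 with LPS they were 2.60 against 4.97 for Sesn1 (log2 0.91 ± 0.12), 13.6 against 20.7 for Gclc (log2 0.60 ± 0.12) and 12.8 against 27.2 for Slc7a11 (log2 1.08 ± 0.14).

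Whether LPS acted differently in the knockout was tested as an interaction. No member was called in either kind of cell, where limma called 1.95% of all genes in RAW264.7 and 2.93% in BMDMs, and neither edgeR nor DESeq2 called one. In BMDMs 3 members had an unadjusted p under 0.05, where 18.3% of all genes had one: Prdx5 (0.35 ± 0.088, adjusted p = 0.0502), Txn1 (-0.33 ± 0.098, adjusted p = 0.0847) and Sod2 (-0.19 ± 0.062, adjusted p = 0.125). These are the members that rose with LPS there, Prdx5 by more in the knockout and Txn1 and Sod2 by less. Under median-ratio scaling their adjusted p was 0.155, 0.0228 and 0.0283, still under 1.5-fold, and by edgeR on counts 0.00566, 1.74e-05 and 6.44e-05. In RAW264.7 none had an unadjusted p under 0.05, where 10.2% of all genes had one. Without replicate 1 of the labelled knockout with PBS, Prdx5 gave 0.40 there with an adjusted p of 0.0476, under 1.5-fold.

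The gene most like each member was sought among 7704 others with a mean of at least 1 FPKM in every group, by the lower of its 2 Pearson correlations with the member on log2(FPKM + 0.1), over 12 RAW264.7 and over 12 BMDM libraries. For Sod2 it was Marcksl1 (r = 0.997 and 0.998), for Cat Dym (0.991 and 0.991), for Prdx5 Rilpl2 (0.988 and 0.989) and for Txn1 Ndufb1 (0.984 and 0.994). Sod1 was closest to Taldo1 (0.994 and 0.991), Gpx1 to Arpc1b (0.993 and 0.992), Gpx4 to Cyb5a (0.994 and 0.989) and Prdx2 to Arhgdib (0.993 and 0.989). Prdx1 and Prdx6 had looser matches, Eif5a (0.948 and 0.943) and Klhdc4 (0.870 and 0.894). The 12 libraries of a table share its 4 groups and its scaling, so these values describe shared group means and carry no test.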

How the data were processed

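RNA-seq libraries of poly(A) RNA, sequenced as paired reads of 150 bases, came as 1 table per kind of cell. Each table holds counts per gene and FPKM, both deposited by the authors. The FPKM could be rebuilt from the counts, the library totals and the exonic lengths within 1% for 99.88% of 122116 RAW264.7 values and 99.51% of 123096 BMDM values over 50 counts. Neither the aligner nor the counter was given in the sources used here. The submitters' processing notes name mm10, but start and end in the tables matched GENCODE M21 (GRCm38) for 1472 of 52073 shared genes, so coordinates were taken from GENCODE.

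The members and gene lists were chosen with earlier results of these data known. Of the 37 further genes, those named were called in the same direction in both kinds of cell or had the largest changes of a comparison, and Gpx3, Sesn2 and Srxn1 were named after their values were seen. Groups followed the titles. Log2(FPKM + 0.1) of all genes above 0 in at least 1 library was fitted with limma 3.58.1 (R 4.3.3), 1 fit per kind of cell over 12 libraries and 4 groups, with Benjamini-Hochberg adjustment over all genes. A fold change on this scale understates the change of low genes. A call took an adjusted p under 0.05 and a fold of 1.5. edgeR 4.0.16 (quasi-likelihood, TMM) and DESeq2 1.42.0 on the counts, other pseudocounts (0.01 and 1), an FPKM minimum of 1 in 3 libraries, an intensity trend, TPM and median-ratio scaling, a replicate block, fits of the compared groups alone and leaving out each library were alternatives. The statistics were tested only on simulated data that held no outlying library and no shift of the median gene. That test cannot speak for calls that turn on a single library or on the scaling. Python 3.11.15 was used for annotation and figures.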

Additional observations from a re-analysis of the deposited data

Results flagged for a closer look

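Several members moved in opposite directions in the 2 kinds of cell, with no overlap of the libraries compared in either. How many of all genes did so was not counted. The tables were scaled separately, and the difference between the kinds of cell was not tested. Olfml3 itself went against the label in RAW264.7, so the direction of the genotype changes there rests on the sample titles. For labelled Olfml3 knockout against wild type with PBS, log2 changes in RAW264.7 and BMDMs were -0.30 and 0.36 for Sod2, -0.25 and 0.20 for Cat, -0.52 and 0.21 for Prdx1 and -0.77 and 0.06 for Txn1. With LPS they were -0.43 and 0.17 for Sod2, -0.43 and 0.32 for Cat, -0.60 and 0.23 for Prdx1 and -0.42 and 0.20 for Prdx5. For LPS against PBS in the wild type, Txn1 changed by -0.19 in RAW264.7 and by 1.11 in BMDMs. Of these values only Prdx1 and Txn1 in RAW264.7 (Prdx1 with LPS, Txn1 with PBS) and Txn1 in BMDMs with LPS were called. Under median-ratio scaling the LPS change of Txn1 in wild-type RAW264.7 cells turned to 0.03. The genotype changes in BMDMs with LPS then came to 0.04 for Sod2, 0.19 for Cat, 0.10 for Prdx1 and 0.07 for Prdx5. With PBS they came to 0.33 for Sod2, 0.17 for Cat, 0.18 for Prdx1 and 0.03 for Txn1. Groups of 3 libraries are too small for a test of single outlying samples.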

How the results depend on the processing

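The filter at an FPKM of 1, the intensity trend, a pseudocount of 1 and the added reads of Gpx4-ps2 left all 100 calls and directions of the members as they were. Scaling mattered most for LPS in BMDMs. There the changes in the wild type turned direction on counts for Gpx4 (0.10 with edgeR, 0.13 with DESeq2), Prdx1 (0.59 and 0.62), Prdx6 (0.74 and 0.77) and, with DESeq2, Sod1 (0.018), and in the knockout for Gpx4 with DESeq2 (0.021). With median-ratio scaling, changes of Prdx1, Prdx2 and Prdx6 that were not called also turned, to 0.43, 0.14 and 0.57 in the wild type and 0.35, 0.11 and 0.37 in the knockout, all under 1.5-fold, and Glrx, one of the further genes, turned from -0.02 to 0.59 in the wild type and was called. In RAW264.7 with LPS, Prdx1 turned to 0.20 in the wild type and 0.15 in the labelled knockout and Txn1 to 0.03 in the wild type, none of them called. The number of members called fell from 7 to 4 in the wild type with median-ratio scaling and in the knockout with median-ratio scaling, edgeR and DESeq2. With the adjusted p alone, 4 members passed for genotype in BMDMs with LPS and 1 with PBS, in place of 0. In RAW264.7 the genotype count with LPS was 4 in place of 7 under TPM scaling, and with PBS it was 0 in place of 3 with only the groups compared and 7 with median-ratio scaling and without replicate 1 of the labelled knockout, an alternative chosen after seeing the data.

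Leaving out 1 library at a time gave 0 to 7 members for genotype in RAW264.7 with PBS, 6 to 7 with LPS, 4 to 5 for LPS in the wild type and 6 to 8 in the labelled knockout. In BMDMs these counts were 7 to 7 for LPS in each genotype and 0 to 0 for genotype, and 0 to 0 for both interactions. With the replicate number as a block, 99 of 100 calls were the same, and Txn1 in RAW264.7 with PBS was lost (-0.77, adjusted p = 0.0549), leaving 2 members. Deviations of same-numbered libraries correlated between -0.106 and 0.190, and differently numbered libraries were not compared. In knockout BMDMs replicate 3 had the fewest counts of its group both with PBS (17746364) and with LPS (17121240). Whether same-numbered libraries are linked was not tested.

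Over all genes, the count called for genotype in RAW264.7 with PBS was 2287, against 5523 without replicate 1 of the labelled knockout, 997 with only the groups compared and 1474 with a pseudocount of 1. A pseudocount of 1 also lowered 4635 to 3054 with LPS, and in BMDMs 490 to 256, 1285 to 439 and, for the interaction, 789 to 402. The adjusted p alone raised those to 1116, 4804 and 1762. Calls for genotype in RAW264.7 with LPS moved from 2602 higher and 2033 lower to 3658 and 1222 under TPM scaling, and the share higher moved from 67.9% to 46.8% in BMDMs with LPS under median-ratio scaling. The cause was not tested.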
